A study of Mus musculus with 35 samples.

Results

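Striatal RNA of 12 female Htt Q111/+ mice was compared between weekly control ASO (n = 6) and weekly saline (n = 6), from a series of 35 mice. The mice were those labelled Q111/+ with the treatment Control or Saline, and every such mouse was included. Htt Q111/+ mice carry a long CAG repeat knocked into 1 copy of the mouse huntingtin gene and keep 1 normal copy, on a C57BL6/J background. Both groups were injected intraperitoneally from 2 to 10 months of age, with control ASO at 50 mg/kg or saline at 4 µL/g, and were 300 to 304 days old when their right hemistriatum was taken after perfusion with saline. The other 23 mice were 6 Htt Q111/+ mice given Htt ASO and 17 Htt +/+ mice, of which 6 received saline, 5 control ASO and 6 Htt ASO. Each library came from 1 mouse.

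An antisense oligonucleotide (ASO) of this kind is a short gapmer: a DNA centre that recruits RNase H to cut a matching transcript, between methoxyethyl-modified wings, on a phosphorothioate backbone. The control ASO shares that chemistry and, per the study's methods, has no matching sequence in the mouse genome. Oligonucleotides given by injection reach liver and kidney readily and cross the blood-brain barrier poorly. As a class they can be bound by scavenger receptors, engage nucleic acid sensors and induce interferon or cytokine genes. The striatum consists mainly of medium spiny projection neurons, which express dopamine receptors, Pde10a and Ppp1r1b and lose part of that expression in Huntington's disease models. The comparison asks which striatal transcripts, if any, differed after 8 months of a non-targeting oligonucleotide on the Q111/+ background.

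Total expected counts ran from 32641448 to 38641924 per mouse in the 12 libraries, and TMM factors from 0.993 to 1.03. Of the 22099 genes listed, 17639 were tested. The libraries lay in 6 sequencing lanes, if the letter L in the titles is read as a lane. Lanes 3 and 6 held 1 mouse of each treatment, lane 7 held 2 control ASO and 3 saline mice, and the other mice lay in lanes with 1 treatment only. Replicates were numbered here within each group, in the order of the mouse labels. The mice of lane 3 were control ASO replicate 2 (mouse GS2) and saline replicate 3 (mouse HO1). Saline replicate 3 stood apart: its score on the first principal component (15.6% of the variance) was −43.6, against −13.8 to 15.5 in the other 11 mice. Values without it are given beside many of the differences that it moved.

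No gene was called between control ASO and saline. With limma after voom, 0 of 17639 genes (0%) had an adjusted p under 0.05, and the smallest adjusted p was 0.999987. An unadjusted p under 0.05 was reached by 512 genes (2.90%), of which 219 (1.24% of all tested) were higher and 293 (1.66%) lower on control ASO. With no true difference in any gene, that share would be 5% on average. edgeR's quasi-likelihood test also called 0 genes. DESeq2 called 1, Nsddr, which was 0 in every saline mouse and in 5 control ASO mice and 5.81 CPM (counts relative to the TMM-scaled library size) in control ASO replicate 6 alone. Nsddr reached 2.58 CPM in Q111/+ mice on Htt ASO. In +/+ mice it reached 4.32 (saline), 3.57 (control ASO) and 6.23 CPM (Htt ASO). Without saline replicate 3, limma called 0 genes and 400 reached an unadjusted p under 0.05. Every log2 difference below is control ASO minus saline from the limma fit unless another scale is named, and every gene named has an adjusted p of at least 0.999987 in it.

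The median absolute log2 difference over all tested genes was 0.044, and 95% of genes lay within 0.34. The data bounded most differences closely. The 95% confidence interval of the difference lay inside a 1.25-fold change either way for 12302 genes (69.7%), inside 1.5-fold for 14939 (84.7%) and inside 2-fold for 16649 (94.4%). Precision followed expression level. Among the 2164 genes with a mean of 100 CPM or more, 98.9% had an interval inside 1.25-fold, while among the 2570 genes under 1 CPM 0.156% did. For nearly all genes under 1 CPM, a difference of 1.25-fold was not excluded at this depth and number of mice.

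**Figure D1:**
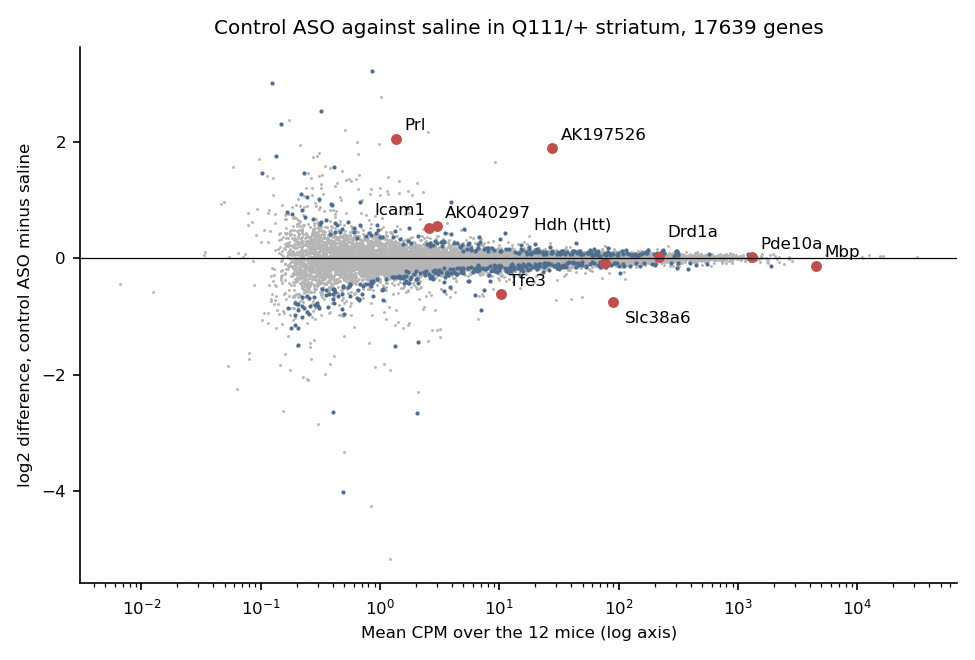
Each point is 1 of 17639 genes, with its mean CPM over the 12 Q111/+ mice on a log axis and its log2 difference, control ASO minus saline, on the other axis. Blue points have an unadjusted p under 0.05 (512 genes), red points are named genes, none of which was called, and the spread narrows as expression rises.

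Huntingtin itself came first among the transcripts examined, since an oligonucleotide with no match to it was the control for one that has. Htt, listed under its older symbol Hdh, measured 65.3, 73.5 and 88.1 CPM (lowest, median and highest) on control ASO and 69.8, 78.9 and 93.1 CPM on saline. The groups overlapped over most of their range. The log2 difference was −0.075 (95% confidence interval −0.27 to 0.12, exact permutation p = 0.405, two-sided), and the interval ran from 0.831-fold to 1.08-fold of the saline level. Without saline replicate 3 the difference was −0.027.

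The other transcripts that the study followed as markers of striatal dysregulation lay close together in the 2 groups. Drd1a, the dopamine D1 receptor of direct-pathway neurons, measured 200, 222 and 237 CPM on control ASO and 198, 213 and 239 CPM on saline. Its log2 difference was 0.019 (−0.077 to 0.12), or 0.011 without saline replicate 3. Pde10a, the phosphodiesterase that breaks down cyclic nucleotides in medium spiny neurons, measured 1100, 1339 and 1453 CPM on control ASO and 1171, 1318 and 1467 CPM on saline. The groups overlapped for both genes, with 1 control ASO mouse below the saline range of Pde10a, whose difference was 0.018 (−0.11 to 0.15).

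Islr2, a leucine-rich repeat membrane protein of neurons, measured 34.1, 44.4 and 56.3 CPM on control ASO and 37.4, 42.5 and 45.0 CPM on saline. The control ASO mice spread wider, with 3 of 6 above every saline mouse and 1 below every one, and the log2 difference was 0.068 (−0.14 to 0.27). N4bp2, listed as B3bp, measured 9.89, 10.5 and 14.2 CPM on control ASO and 8.51, 11.2 and 13.2 CPM on saline, a difference of 0.0029 (−0.26 to 0.27), or 0.037 without saline replicate 3. All 5 transcripts had intervals inside 1.25-fold, beside 69.7% of all tested genes. At their expression levels that share was 95.7% (10 to 100 CPM) and 98.9% (100 CPM or more).

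A broader view of the genotype came from a signature that neither group chose. It held the 3505 genes that limma called between Q111/+ and +/+ mice on Htt ASO, 1734 higher and 1771 lower in Q111/+ mice. Each mouse was scored by how far its log2 CPM lay from that of +/+ mice on Htt ASO, in the direction of the genotype change and averaged over the signature. On control ASO the scores were 0.257, 0.278 and 0.338, with a mean of 0.284 ± 0.030 (SD, n = 6). On saline they were 0.227, 0.278 and 0.330, with a mean of 0.281 ± 0.037 (SD, n = 6). The means differed by 0.0030, less than the SD between mice of either group. The 11 +/+ mice on control ASO or saline scored between 0.025 and 0.084, below every Q111/+ mouse.

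Single genes of the signature were as evenly placed. Of the 3505, 1752 (49.99%) were closer to the +/+ side on control ASO than on saline, 0 were called, and 96 (2.74%) had an unadjusted p under 0.05, beside 2.90% of all tested genes. The confidence interval of the difference excluded a full return to the +/+ level for 3276 genes (93.5%) and a return of 50% of the way for 1875 (53.5%). For the remaining genes, movements of that size were not excluded. Both returns were measured against the genotype difference in the mice on Htt ASO, which also chose the genes. Mean scores were 0.281 in Q111/+ and 0.050 in +/+ mice on saline, against 0.314 in Q111/+ mice on Htt ASO. The gap in saline mice can therefore be smaller than the return tested, and the 93.5% and 53.5% can be too high.

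**Figure D2:**
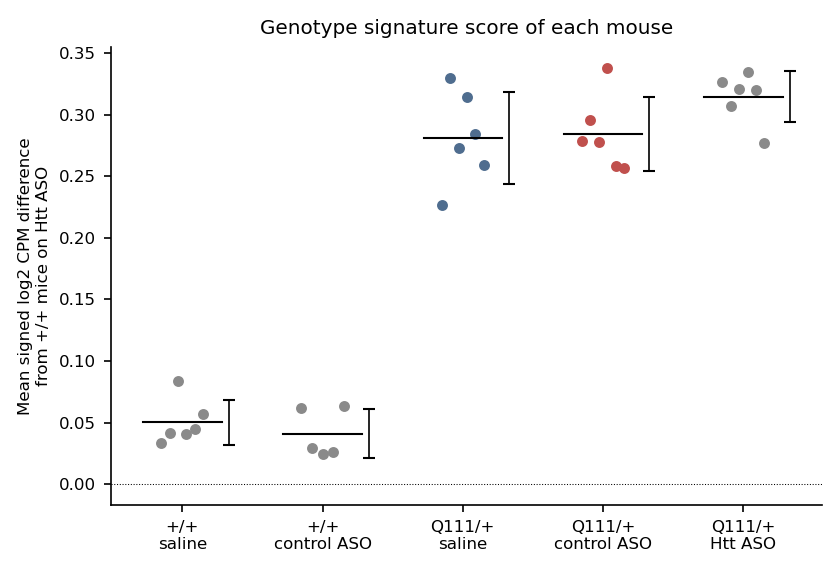
Each point is 1 mouse, with its genotype signature score (mean signed log2 CPM difference from +/+ mice on Htt ASO) by group, the mean as a line and the SD as a bar. Q111/+ mice on control ASO (mean 0.284) and saline (mean 0.281) overlap, and +/+ mice lie at 0.025 to 0.084; the Q111/+ mice on Htt ASO (mean 0.314) helped to choose the genes.

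The genes that ranked first by unadjusted p differed by little in size. In 13 genes (0.0737% of those tested) every control ASO mouse lay above every saline mouse, and in 7 (0.0397%) every one lay below. Among the 8 genes of smallest p in each direction, with a mean of at least 1 CPM, the differences ran from 0.098 to 0.56 and from −0.61 to −0.11. All 16 kept their direction under all 24 alternative analyses, and none was called in any. Those analyses reused the mice that picked the genes, so a kept direction is not independent support. The p-values of the 16 genes are those by which they were picked, so they are given only as a description.

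Ptpro, a receptor-type tyrosine phosphatase, ranked first among the higher genes. It measured 55.5, 56.5 and 58.7 CPM on control ASO and 52.1, 53.0 and 53.8 CPM on saline, with no overlap. Its log2 difference was 0.10 (0.041 to 0.16), and it was 0.14, 0.083 and 0.10 within lanes 3, 6 and 7. In +/+ mice the difference was 0.018 (−0.051 to 0.087).

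AK040297, a transcript listed by its sequence record only, measured 3.06, 3.46 and 4.35 CPM on control ASO and 1.91, 2.56 and 2.82 CPM on saline, with no overlap and a difference of 0.56 (0.18 to 0.93). Cspp1, a centrosome and spindle pole protein, measured 33.2, 34.04 and 36.4 CPM against 30.2, 31.6 and 33 CPM, also with no overlap (difference 0.12). Gcnt2, which adds branches to glycan chains, Kbtbd4, a substrate adaptor of a ubiquitin ligase, 6230424H07Rik and Tcp11l2 had differences of 0.14, 0.098, 0.28 and 0.12, each with overlap between the groups.

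Icam1 encodes the adhesion molecule by which leukocytes bind activated endothelium. It measured 2.31, 2.77, 2.22, 3.45, 3.81 and 3.68 CPM in control ASO replicates 1 to 6, and 2.43, 1.80, 2.16, 2.43, 2.19 and 1.52 CPM in saline replicates 1 to 6. Replicates 2, 4, 5 and 6 on control ASO exceeded every saline mouse, while replicates 1 and 3 lay within the saline range. The log2 difference was 0.53 (0.17 to 0.88, unadjusted p = 0.00470, exact permutation p = 0.0216), or 1.44-fold, and it was 0.35, 1.25 and 0.71 in lanes 3, 6 and 7. In +/+ mice the corresponding difference was 0.28 (−0.084 to 0.65). In Q111/+ mice on Htt ASO, Icam1 measured 3.78, 4.84 and 5.66 CPM, a difference of 1.20 from the same saline mice (limma adjusted p = 1.75e-05).

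Among the lower genes, Wdhd1, a DNA replication factor, measured 5.28, 5.69 and 5.77 CPM on control ASO and 6.18, 6.46 and 7.07 CPM on saline. The groups did not overlap, and the difference was −0.23 (−0.37 to −0.089) in Q111/+ and 0.015 (−0.13 to 0.16) in +/+ mice. Dolpp1, which recycles the dolichol carrier of protein glycosylation, measured 11.2, 11.8 and 12.1 CPM against 12.3, 13.1 and 13.4 CPM. It did not overlap either (difference −0.14, −0.24 to −0.043), and its difference in +/+ mice was −0.13 (−0.23 to −0.022).

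Tfe3, a transcription factor of lysosomal genes, had the largest of these differences, −0.61 (−1.04 to −0.19), and the widest spread, with 5.04, 7.90 and 11.3 CPM on control ASO and 7.27, 12.8 and 15.9 CPM on saline. Rpia, an isomerase of the pentose phosphate pathway, differed by −0.19, Elovl1, which lengthens very long-chain fatty acids, by −0.15, Elf1, an ETS transcription factor, by −0.21, Trim26 by −0.11 and 1600002K03Rik by −0.30. In each of these the groups overlapped.

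**Figure D3:**
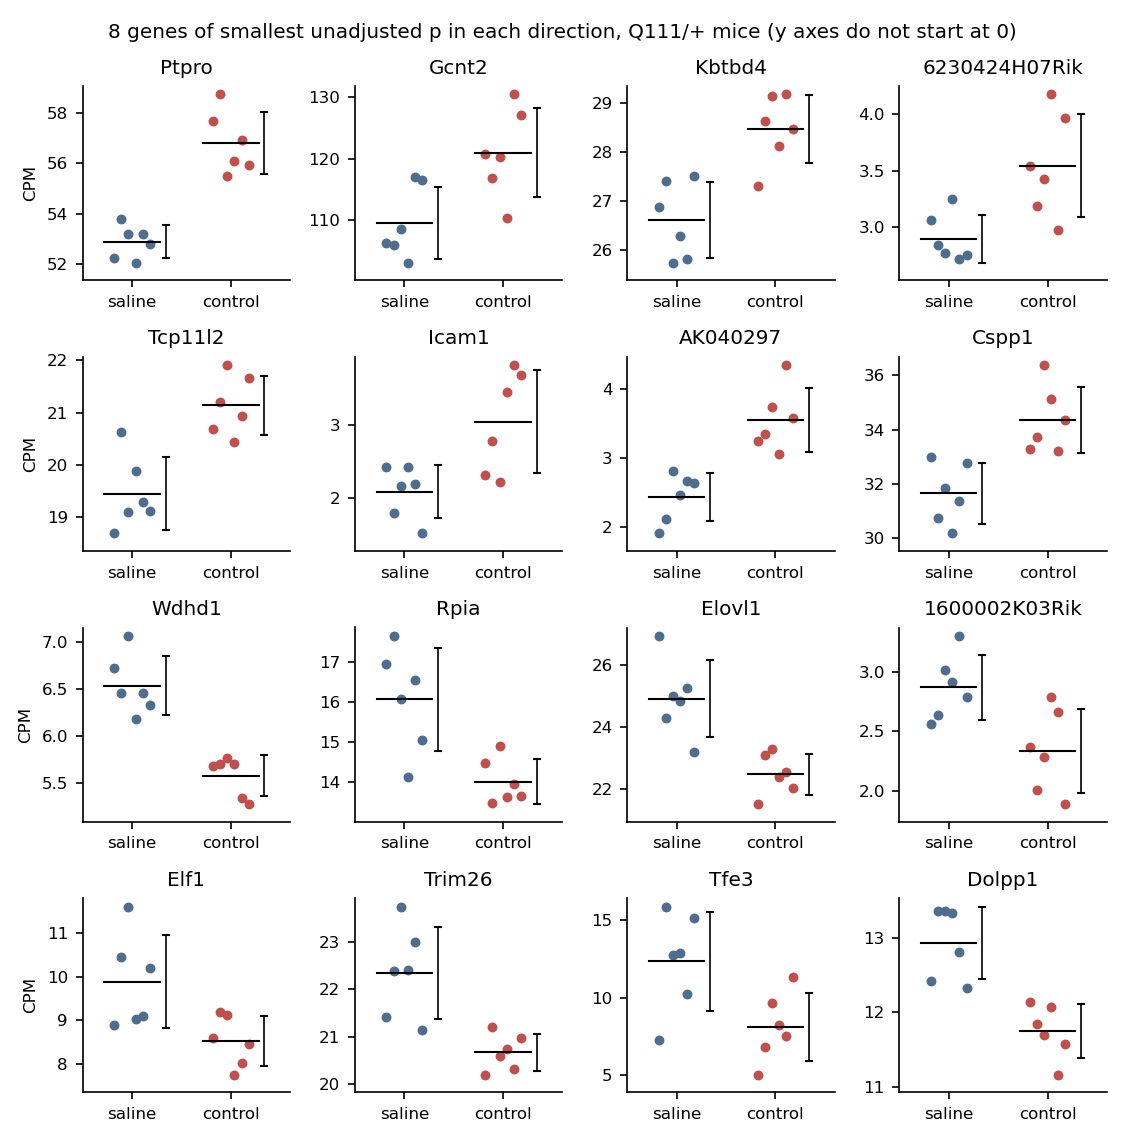
CPM of each Q111/+ mouse on saline (blue) and control ASO (red) for the 8 genes of smallest unadjusted p in each direction, with the mean as a line, the SD as a bar and y axes that do not start at 0. The groups are apart for Ptpro, AK040297, Cspp1, Wdhd1 and Dolpp1 and overlap for the other 11 genes, of which none was called.

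Genes of nucleic acid sensing and interferon were examined next, the groups known to respond to oligonucleotides as a class. Of 24 antiviral interferon-response genes tested, 0 were called, 0 had an unadjusted p under 0.05, 15 were higher and 9 lower, with a median log2 difference of 0.029 beside 4.8e-05 over all genes. With lane as a covariate the median was −0.027, and without single mice it ran from −0.043 (without control ASO replicate 3) to 0.098 (without control ASO replicate 5). Oas2, which makes the second messenger that activates RNase L, measured 0.864, 1.26 and 1.504 CPM on control ASO and 0.905, 1.11 and 1.63 CPM on saline. The groups overlapped throughout, with a difference of 0.067 (−0.43 to 0.57), or 0.026 without saline replicate 3. In Q111/+ mice on Htt ASO, Oas2 measured 3.09 to 6.00 CPM.

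Of 22 class I histocompatibility and interferon-inducible GTPase genes, 11 were higher and 11 lower (median 0.019), 0 with an unadjusted p under 0.05. That median was −0.015 without saline replicate 3 and ran from −0.038 (without saline replicate 2) to 0.073 (without saline replicate 1). H2-K1, a class I antigen-presenting chain, measured 23.2, 25.2 and 26.6 CPM on control ASO and 22.97, 25.2 and 28.5 CPM on saline, a difference of −0.027 (−0.18 to 0.13). Class I genes share sequence, so the division of reads among them is uncertain. Tgtp, an interferon-induced GTPase (current symbol Tgtp1), measured 2.63, 2.84 and 3.30 CPM against 2.16, 2.57 and 2.92 CPM, with 3 of 6 control ASO mice above every saline mouse. Its difference was 0.20 (−0.11 to 0.50), and the exact permutation p was 0.0390. Tgtp was named for a small limma p within this list, so its permutation p is only a description. H2-K1 measured 36.2 to 47.9 CPM and Tgtp 5.20 to 6.65 CPM in Q111/+ mice on Htt ASO.

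**Figure D4:**
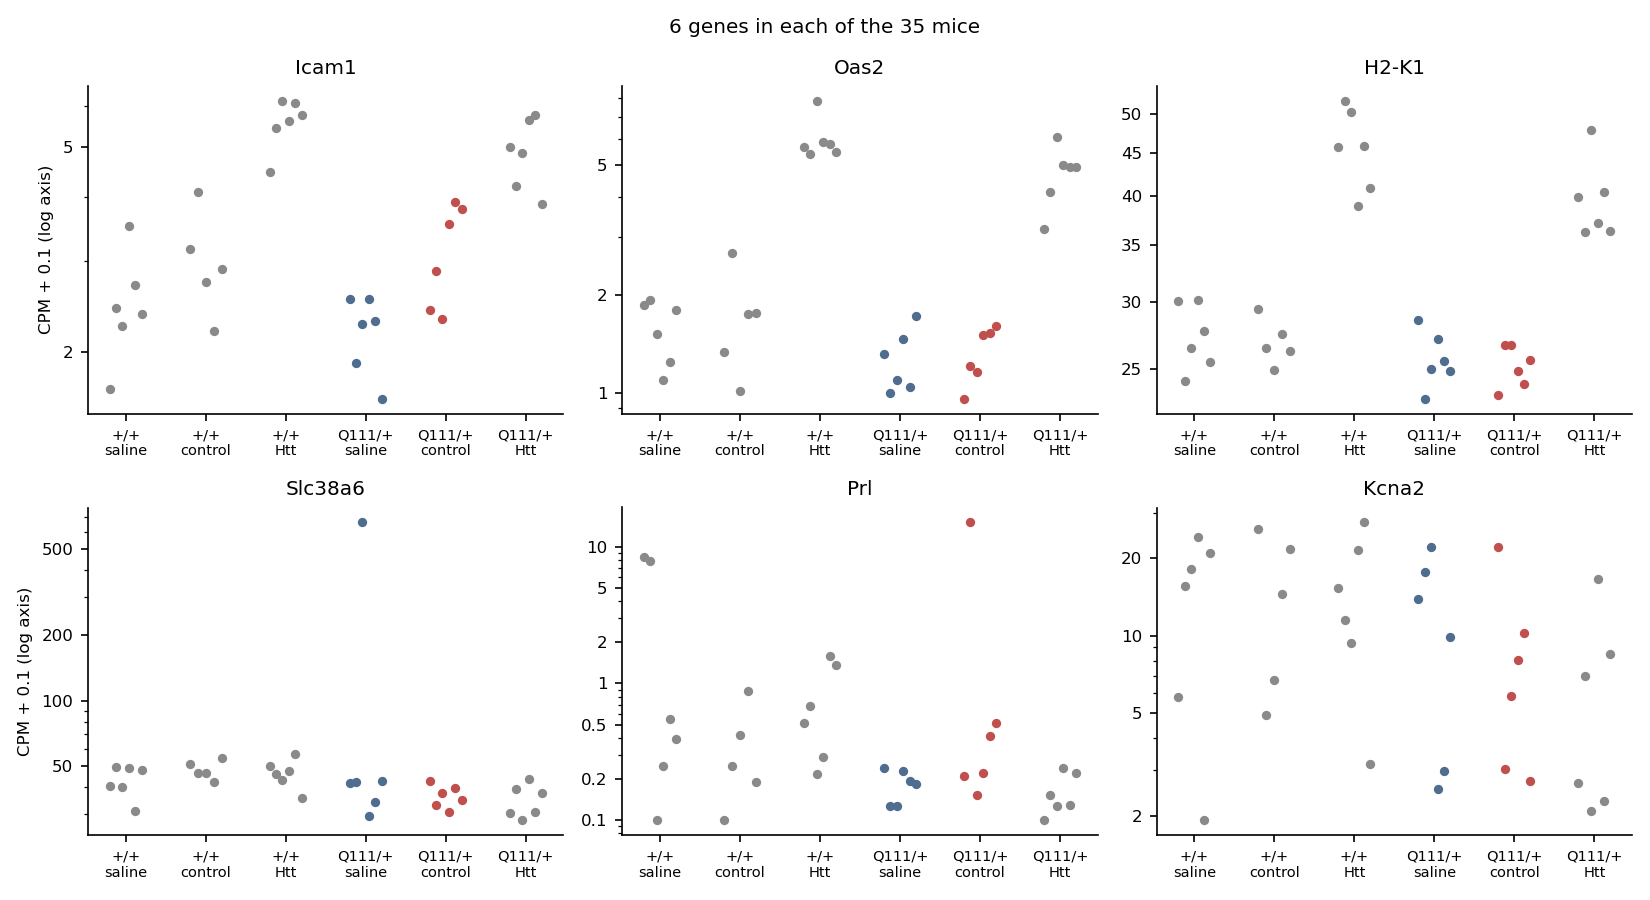
CPM plus 0.1 on log axes for 6 genes in each of the 35 mice by genotype and treatment, with Q111/+ mice on saline in blue and on control ASO in red. Oas2 and H2-K1 overlap between control ASO and saline, Icam1 lies partly above, and 1 saline mouse (Slc38a6, 661 CPM) and 1 control ASO mouse (Prl, 14.96 CPM) stand apart.

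Among 18 nucleic acid sensors and their adaptors, 5 were higher and 13 lower (median −0.026). An unadjusted p under 0.05 was reached by 2 of the 18, both lower, beside 1.66% of all tested genes. Ifih1, the cytosolic sensor of double-stranded RNA, measured 2.73, 3.10 and 3.50 CPM on control ASO and 3.22, 3.955 and 4.63 CPM on saline. With 4 of 6 control ASO mice below every saline mouse, its difference was −0.31 (−0.55 to −0.073, unadjusted p = 0.0118). In +/+ mice it was 0.22 (−0.011 to 0.46), and limma's interaction of treatment with genotype had an adjusted p of 0.735. Irak4, a kinase downstream of Toll-like receptors, differed by −0.31 (−0.59 to −0.020).

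Tlr9, the receptor for unmethylated CpG DNA, differed by −0.27 with an unadjusted p of 0.0652. Of 28 genes of oligonucleotide uptake and handling, which include scavenger receptors, RNase H subunits and nuclear proteins that bind phosphorothioates, 10 were higher and 18 lower (median −0.011), 0 with an unadjusted p under 0.05. Rnaseh1, the enzyme that gapmers recruit, differed by 0.0027, and Stab1, a scavenger receptor for oligonucleotides, by −0.017.

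Of 25 cytokine, chemokine and complement genes named, 24 were listed and 16 tested. Il1b, Tnf, Il6 and Ccl2 were among the 8 with counts too low to test. Of the 16, 4 were higher and 12 lower (median −0.055, or −0.0057 without control ASO replicate 1). C4b, a complement component made by astrocytes and oligodendrocytes, measured 82.3, 93.8 and 103 CPM on control ASO and 95.1, 106 and 141 CPM on saline, with 4 of 6 control ASO mice below every saline mouse. Its difference was −0.26 (−0.44 to −0.068, unadjusted p = 0.00894), while in lanes 3, 6 and 7 it was −0.036, −0.018 and −0.37, and in +/+ mice −0.0023 (−0.20 to 0.19).

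Markers of glia were lower on control ASO by small amounts, and none was called. In whole-tissue RNA, fewer cells of a type and less RNA per cell cannot be told apart. Of 15 oligodendrocyte genes, 14 were lower and 1 higher (median −0.093), beside 8814 lower and 8825 higher among all tested genes. An unadjusted p under 0.05 was reached by 3 of the 15, all lower, beside 1.66% of all tested genes. Mobp, a myelin protein, measured 1690, 1785 and 1945 CPM on control ASO and 1808, 1994 and 2075 CPM on saline, a difference of −0.13 (−0.24 to −0.026). Mbp, the myelin basic protein, measured 3976, 4259 and 4813 CPM against 4440, 4736 and 4962 CPM, with overlap and a difference of −0.12 (−0.24 to −0.0084). Within lanes 3, 6 and 7 the difference of Mbp was 0.0050, 0.012 and −0.17, and in +/+ mice it was −0.050. Cldn11, the tight-junction protein of myelin, differed by −0.11 (−0.21 to −0.0082).

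All 16 microglial genes tested were lower (median −0.077, or −0.043 without control ASO replicate 6), 0 with an unadjusted p under 0.05. Trem2, the lipid-sensing receptor of microglia, differed by −0.13 (−0.26 to 0.0034), C1qc by −0.12 (−0.25 to 0.012), Cx3cr1 by −0.062 and P2ry12 by −0.016 (−0.0052 without saline replicate 3). The microglial list summed to 680, 746 and 776 CPM on control ASO and 756, 771 and 818 CPM on saline. In stained sections, the study reported no effect of treatment on microglial density in the dorsolateral striatum. That test covered all its treatments and both genotypes. All 12 astrocyte genes were lower as well (median −0.050, or −0.031 without control ASO replicate 3), and Gfap, the intermediate filament of reactive astrocytes, differed by −0.25 (−0.51 to 0.013). Intervals lay inside 1.5-fold for all 16 microglial and 15 oligodendrocyte genes and for 11 of 12 astrocyte genes, the exception being the glutamate transporter Slc1a2 (−0.35, −1.26 to 0.55, and −0.19 without saline replicate 3).

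In +/+ mice the medians were −0.023 for the oligodendrocyte, −0.049 for the microglial and −0.044 for the astrocyte list. With library totals in place of TMM the Q111/+ medians were −0.10, −0.086 and −0.059, and with only lanes 3, 6 and 7 and lane as a covariate −0.097, −0.074 and −0.035. Members of a cell-type list come from the same cells of each mouse and are not independent of each other.

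Of 22 projection neuron markers, 17 were higher and 5 lower (median 0.032), 0 with an unadjusted p under 0.05. The median was 0.0091 without control ASO replicate 5, 0.018 without saline replicate 3 and 0.059 without saline replicate 1. Bcl11b, a transcription factor of medium spiny neurons, measured 260, 277 and 295 CPM on control ASO and 238, 265 and 283 CPM on saline (difference 0.082, −0.0071 to 0.17). Ppp1r1b, the DARPP phosphoprotein of dopamine signalling, differed by 0.066, Drd2 by 0.042, Adora2a by 0.028 and Penk1, the proenkephalin gene, by −0.023. Without saline replicate 3, Ppp1r1b differed by 0.040, Drd2 by 0.014, Adora2a by 0.00079 and Penk1 by −0.051. These defining striatal markers were abundant in all 12 mice, with Drd1a at 198 CPM or more. Of 12 interneuron genes, 5 were higher and 7 lower (median −0.028), and Chat, the cholinergic marker, differed by −0.14 (−0.30 to 0.021).

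Vessel genes were mixed, with 9 of 23 higher and 14 lower (median −0.038, or −0.0013 without saline replicate 6), and Icam1 alone had an unadjusted p under 0.05. Abcb1a, the drug efflux pump of the blood-brain barrier, differed by −0.10 (−0.21 to 0.0033) in Q111/+ and 0.11 in +/+ mice. Cldn5, Pecam1 and Flt1, markers of endothelium, differed by −0.068, −0.057 and −0.065, and Cldn5 and Pecam1 by −0.12 and −0.087 without saline replicate 3.

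Markers of neighbouring tissue and blood varied widely between mice. Slc17a7, the vesicular glutamate transporter of cortical neurons, measured 4.35, 12.8 and 53.0 CPM on control ASO and 4.74, 13.1 and 28.1 CPM on saline. The highest value belonged to control ASO replicate 2. The median of 10 cortical genes was 0.044. It was −0.039 without that mouse, −0.0036 without saline replicate 3, 0.24 without control ASO replicate 5 and 0.21 in lanes 3, 6 and 7 only. Ttr, the choroid plexus transthyretin, measured 9.90, 21.3 and 40.3 CPM against 20.6, 26.6 and 66.5 CPM, and 10 of 12 choroid plexus genes were lower (median −0.19, or −0.37 without control ASO replicate 3). In +/+ mice the choroid plexus median was 0.57. Of 15 blood genes named, 10 were listed and 4 had counts high enough to test. These 4 were all lower on control ASO (median −0.68, or −0.35 without control ASO replicate 4), where in +/+ mice their median difference was 1.19. Hbb-b1, a beta globin, measured 10.4 to 72.0 CPM on control ASO and 28.8 to 92.2 CPM on saline, and differed by 0.98, −1.95 and −0.91 in lanes 3, 6 and 7. None of these markers was called, and their part in other differences was not tested.

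**Figure D5:**
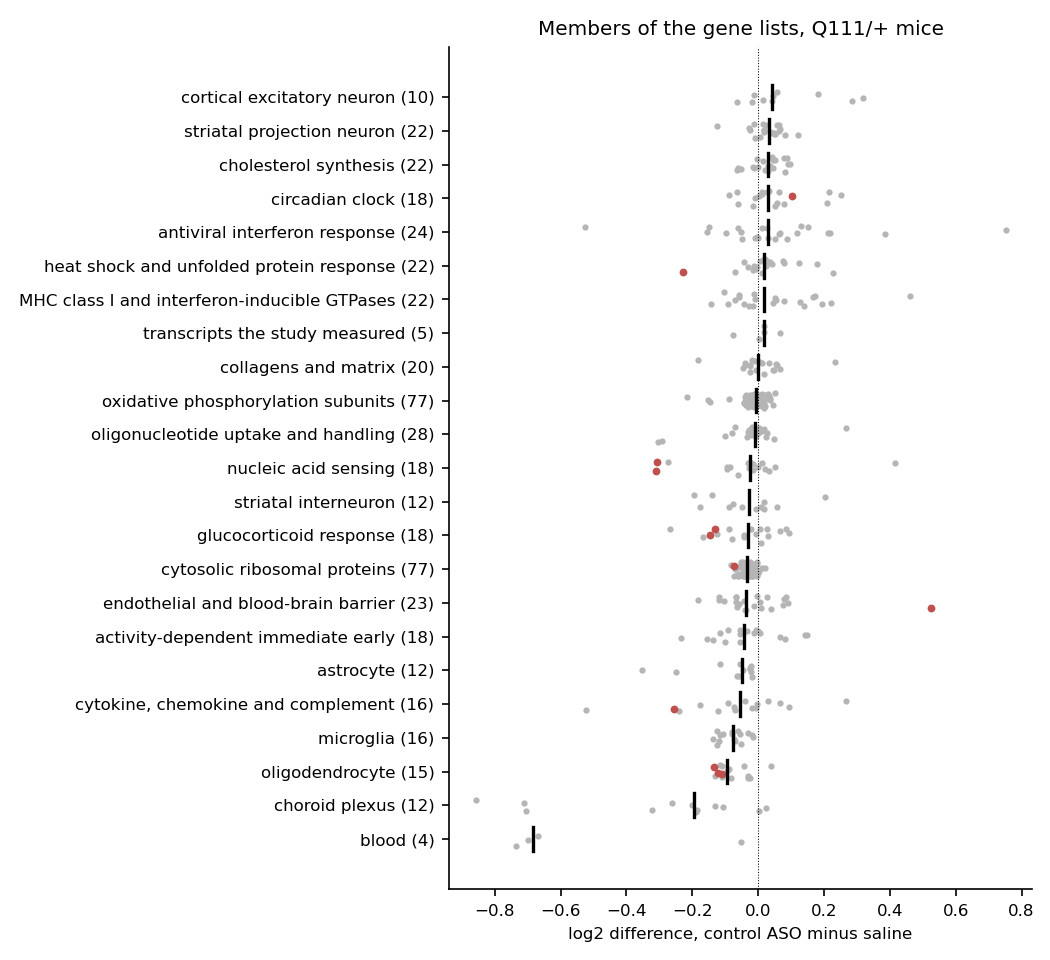
Each point is a tested member of 1 of 23 gene lists, with its log2 difference, control ASO minus saline, in Q111/+ mice; black bars are list medians, red points have an unadjusted p under 0.05, and the number of members stands in parentheses. Medians run from −0.68 (blood, −0.35 without control ASO replicate 4) to 0.044 (cortical genes, −0.039 to 0.24 without single mice), and no member was called.

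Lists for cell stress and physiology held 0 called genes. An unadjusted p under 0.05 was reached by 1 of 18 clock genes, which was higher. It was reached by 2 of 18 glucocorticoid-response genes and 1 of 22 heat shock and unfolded protein response genes, all lower. Over all tested genes 1.24% reached it higher and 1.66% lower. Of 18 clock genes, 13 were higher and 5 lower (median 0.030). Hlf, a transcription factor driven by the clock, measured 225, 248 and 264 CPM on control ASO and 211, 231 and 243 CPM on saline, a difference of 0.10 (0.0044 to 0.20). Of 18 glucocorticoid-response genes, 7 were higher and 11 lower (median −0.031, or 0.026 without saline replicate 6). Mt1 and Mt2, the metallothioneins, differed by −0.13 (−0.24 to −0.017) and −0.15 (−0.26 to −0.026), and Mt1 by −0.13 in +/+ mice too. Of 22 heat shock and unfolded protein response genes, 14 were higher and 8 lower (median 0.019, or 0.0024 without saline replicate 3 and −0.0061 without saline replicate 4). Chac1, which degrades glutathione under stress, differed by −0.23 (−0.43 to −0.028).

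Of 18 immediate early genes, which follow neuronal activity, 6 were higher and 12 lower (median −0.043, or 0.055 without control ASO replicate 2). Of 22 cholesterol synthesis genes, 16 were higher and 6 lower (median 0.031), all with intervals inside 1.25-fold. Without control ASO replicate 2 that median was 0.015. Of 20 collagen and matrix genes, 10 were higher and 10 lower (median −0.00099), and of 77 oxidative phosphorylation subunits 33 were higher and 44 lower (median −0.0049). Both medians changed sign without single mice. Of 77 cytosolic ribosomal proteins, 74 were lower and 3 higher, by a median of −0.034, or −0.020 without saline replicate 1. Rpsa, a small-subunit protein with processed copies in the genome among which reads could be divided, was the one with an unadjusted p under 0.05 (−0.072, −0.13 to −0.010). In +/+ mice the ribosomal median was −0.067, and in Q111/+ mice with library totals −0.043.

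The comparison of control ASO with saline was set beside the same comparison in +/+ mice, which shares no mouse with it. In +/+ mice 0 genes (0%) were called, the smallest limma adjusted p was 0.260, and 2080 genes (11.8%) had an unadjusted p under 0.05. That number was 1486 with lane as a covariate and 1383 with age as a covariate. The interaction of treatment with genotype called 0 genes (0%). Its smallest limma adjusted p was 0.735, and an unadjusted p under 0.05 was reached by 1169 genes (6.63%). With DESeq2, 4 genes were called in +/+ mice (Slco1a4, Jsrp1, Dab2 and Slc9a3r1) and 1 in the interaction, Prl, which was high in 1 Q111/+ mouse on control ASO and in some +/+ mice on saline. A set of 50 genes had an unadjusted p under 0.05 in both genotypes, 9.77% of those in Q111/+ and 2.40% of those in +/+ mice, and 31 of them differed in the same direction. Of the 512 genes in Q111/+ mice, 262 (51.2%) had the same sign in +/+ mice, beside 50.5% of all tested genes.

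Single mice stood apart from the rest in a small number of genes. In 28 genes, 1 of the 12 mice lay at least 4-fold from all the others (after 0.3 CPM was added, at 2 CPM or more), and saline replicate 3 was that mouse for 22 of them, 21 times high and 1 time low. Slc38a6, an amino acid transporter, measured 661 CPM in that mouse and 29.4 to 42.8 CPM in the other 11, while the 23 mice of the other groups lay at 28.1 to 57.0 CPM. AK185681 measured 76.2 CPM against at most 0.530 CPM in the others. AK197526 went the other way, at 0 counts in that mouse, where 3 counts would be 0.0808 CPM, against 27.8 to 33.7 CPM in the other 11.

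The log2 difference of Slc38a6 was −0.75 with it and −0.054 without it, and that of AK197526 was 1.89 with it and 0.0065 without it. Control ASO replicate 2 held Prl, the pituitary hormone prolactin, at 14.96 CPM against 0.027 to 0.41 CPM in the other 11 mice, and Gh, growth hormone, at 3.25 CPM against at most 0.164 CPM. It was also the mouse with the most Slc17a7. Saline replicate 5 held Abca4, a retinoid transporter, at 15.9 CPM against 1.58 to 2.53 CPM. In mice of the other groups of the series, Abca4 reached 11.7, Prl 8.25 and Gh 4.95 CPM.

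Other genes differed widely between mice of both treatments. Kcna2, a voltage-gated potassium channel, measured 2.63, 6.85 and 22 CPM on control ASO and 2.45, 11.8 and 21.97 CPM on saline, so that its log2 difference of −0.37 had an interval of −1.82 to 1.08. Without saline replicate 3 its difference was −0.092. The intervals of Hipk2 and Igsf9b ran from −2.18 to 0.98 and from −2.215 to 0.96, about differences of −0.60 and −0.63, which were −0.19 and −0.30 without that mouse. For such genes, the design bounded the difference only within several-fold.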

How the data were processed

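RNAseq of 1 hemistriatum per mouse was used. Per the labels and methods, libraries came from a stranded mRNA kit, paired reads were mapped by Bowtie 0.12.9 to transcripts of MGSCv37 (mm9), and RSEM 1.1.18 estimated expression. The authors deposited its expected counts without scaling. RSEM divides reads that fit several transcripts, so near-identical genes are uncertain. Whether counting used strand is not given in the sources used here.

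Genes were kept by filterByExpr over 6 groups (minimum count 10, minimum total 15). Limma 3.58.1 after voom, with TMM factors from edgeR 4.0.16 (R 4.3.3), fitted a mean for each group to all 35 mice (29 residual and 4.30 prior degrees of freedom), with Benjamini-Hochberg adjustment over all tested genes and a threshold of 0.05. The study names limma after voom. Signature scores and permutation tests used log2 CPM with a prior count of 2; lane values are differences of its means. P-values measure the spread between these mice, which the labels number as separate animals.

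Named genes were those the study measured, the 8 genes of smallest p each way at a mean of 1 CPM or more, and from each list its called members, the 2 of smallest p and the most abundant. Outlying genes and several markers were added after their values were seen. The members and lists were chosen with earlier results of these data known. Alternatives included edgeR and DESeq2 1.42.0 on rounded counts, other scalings, filters and covariates, and leaving out each mouse. All 30 pairs of mice within a group differed by more than sampling noise (chi-square over its degrees of freedom, 4.40 to 14.3). The code was tested on simulated data.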

Additional observations from a re-analysis of the deposited data

Results flagged for a closer look

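For each of 129 named genes, each group of 6 mice was searched for a single mouse whose log2 CPM lay apart from the other 5 beyond Dixon's 95% critical value, a test on the gap as a share of the group's range, which chance gives in about 5% of groups. It did so in 7 of 166 groups (4.22%) for the genes named by the rule, and in 14 of 92 (15.2%) for markers and for genes added because a mouse stood apart in them.

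Saline replicate 3 was high in Slc38a6 (661 CPM, the other 5 saline mice 29.4 to 42.5), AK185681 (76.2), Serhl (40.4, others 4.01 to 4.95), NR_002886 (30.7), Ptger1 (21.3), Cenpo (19.7), EG329070 (16.8), NR_002218 (13.8) and calp80 (10.5). It was low in AK197526 (0 CPM, others 27.8 to 33.7) and in Sst, the somatostatin gene (67.8 CPM, others 78.9 to 85.9).

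Saline replicate 5 was high in Abca4 (15.9 CPM). Saline replicate 6 was high in Atp5f1 (176 CPM, others 163 to 167) and low in Ndufb7 (35.1, others 39.9 to 41.7) and S100b (39, others 43.8 to 45.8).

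On control ASO, replicate 1 was high in B3bp (14.2 CPM, others 9.89 to 11.2), replicate 2 in Prl (14.96) and Gh (3.25), replicate 4 in Clic6 (32.6, others 26.7 to 28.4) and Rpl34 (98.0, others 90.4 to 92.3), and replicate 5 in Hspa8 (2273, others 2042 to 2080).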

How the results depend on the processing

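Limma's 0 calls in Q111/+ mice stayed at 0 under each alternative but DESeq2, which called 1 gene (Nsddr), 4 in +/+ mice and 1 in the interaction. Without each of the 12 mice in turn, calls ran from 0 to 0. Genes at an unadjusted p under 0.05 in Q111/+ mice numbered 512, 773 with lane as a covariate and 1138 in lanes 3, 6 and 7 only, and without single mice 400 to 697. Lane 3 held control ASO replicate 2 and saline replicate 3, each outlying in genes named above. Why the count rose with lane in the model was not tested. The interaction was not run for the 12 mice alone or lanes 3, 6 and 7. The signature score difference was 0.0030, 0.012 with the 100 genes of smallest p, −0.0018 with library totals, and −0.0078 to 0.013 without single mice. Of 129 named genes, 33 changed sign under at least 1 of 24 alternatives, none of them called. Medians of the microglial, astrocyte, oligodendrocyte and ribosomal lists stayed below 0 under all 24 (highest −0.043, −0.031, −0.075 and −0.020). Library totals turned no list median, and DESeq2 size factors turned that of matrix genes (0.0012). List medians that changed sign were those of matrix genes under 13 alternatives, interferon and oxidative phosphorylation genes under 5 each, class I and GTPase genes and the 5 striatal marker transcripts (Htt among them) under 4 each, glucocorticoid genes under 3, cortical genes under 2, and immediate early and heat shock genes under 1 each. The other 14 lists kept their sign under all 24. No paired analysis was possible because the labels give no replicate numbers. Lane served as a covariate in its place. Low counts and 6 mice a group limit what could be detected.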
